A study of Homo sapiens with 6 samples.

Results

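Eph receptors and ephrins are described here in LS174T, a human colorectal adenocarcinoma line with goblet-like features, from 3 libraries labelled FXYD3 knockout and 3 libraries of wild-type cells, all of poly(A) RNA from the same line grown without any other named agent. The members are 10 genes taken by name from the 58735 named genes of the count table: the receptor genes EPHB2, EPHB3, EPHB4, EPHB6, EPHA1, EPHA2 and EPHA4 and the ligand genes EFNB1, EFNB2 and EFNA1. FXYD3 encodes a small membrane protein that regulates the Na,K-ATPase. The labels describe neither the edit nor whether the knockout-labelled cells are 1 clone. They name no separate cultures behind replicate libraries either. The p-values thus set a difference between labels against the scatter among these libraries alone, and that scatter may be technical.

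Eph receptors are receptor tyrosine kinases, and their ligands, the ephrins, are themselves bound to the membrane of a neighbouring cell, so that contact sends a signal into both cells. A-type ephrins are held by a lipid anchor and B-type ephrins cross the membrane, and receptors of each class bind mostly ligands of their own class. In the mouse intestine EphB2 and EphB3 are made at the crypt base as targets of Wnt signalling through TCF factors, ephrin-B1 and ephrin-B2 are made higher up, and the repulsion between them keeps cell types in place.

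The 6 libraries held 15417232 to 19453217 counts in named genes, and the 10 members took 0.163 to 0.178% of these in the knockout-labelled libraries and 0.209 to 0.222% in the wild-type ones. FXYD3 itself had 79, 131 and 85 counts in the knockout-labelled libraries, against 54, 91 and 55 in the wild-type ones (log2 fold change 0.54, SE 0.20, adjusted p = 0.0522), so its transcript was no lower under the knockout label, and each direction given here is one between labels. The log2 fold change of FXYD3 passed the threshold without wild-type library 2 (0.79, adjusted p = 0.00313). All 7 epithelial markers of a fixed list averaged at least 1 CPM (read counts scaled to library size after TMM normalisation), as did 5 of 7 goblet markers, whose summed level was 512 to 566 CPM in knockout-labelled and 698 to 870 CPM in wild-type libraries; the goblet markers CLCA1 and ZG16 had 13 and 0 counts in all knockout-labelled libraries together, against 2 and 6 in all wild-type ones. Markers of other cell types were low. The leukocyte genes PTPRC, CD3E and CD79A, the endothelial genes PECAM1 and KDR and the fibroblast genes COL1A2 and PDGFRA had 0 counts in every library. Summed fibroblast markers reached 6.37 to 7.78 CPM against 1.04 to 2.05 CPM. COL3A1 averaged 5.63 against 0.313 CPM among these and PDGFRB 1.23 against 0.906 CPM. Summed neural markers reached 7.33 to 9.52 CPM in the knockout-labelled libraries against 4.34 to 5.84 CPM in wild type, with 1 of 5 neural markers, GFAP, at 0. Among these MAP2 had 127 against 3 counts and SYT1 304 against 220, while RBFOX3 had 8 against 29. Summed leukocyte markers were at 0.357 to 0.517 against 2.70 to 4.51 CPM, nearly all of it CD14 in wild type (20 against 189 counts). Endothelial markers summed to 0.129 to 0.417 against 0.0621 to 0.231 CPM. The part of these genes in the results below was not tested.

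Of the 10 members, 5 fell and 2 rose in the knockout-labelled libraries by edgeR's quasi-likelihood test at an adjusted p below 0.05, and 3 did not pass. Over all 15351 tested genes the same test called 24.3% in either direction, 12.0% higher and 12.4% lower; among the 9880 genes that averaged 10 CPM or more over all libraries it called 25.8%. The CPM of the groups did not overlap for 8 members, against 37.2% of all tested genes and 38.5% of those averaging 10 CPM or more. A call together with a change of at least 1 log2 unit was made for 2 members, EPHB3 and EPHB6, and for 6.10% of all tested genes. The median log2 fold change, knockout-labelled over wild type, was -0.20 over the members and 0.0021 over all tested genes. The members fell most among the B-class receptors, where EPHB3, EPHB6 and EPHB2 were called lower and EPHB4 was not called.

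**Figure D1:**
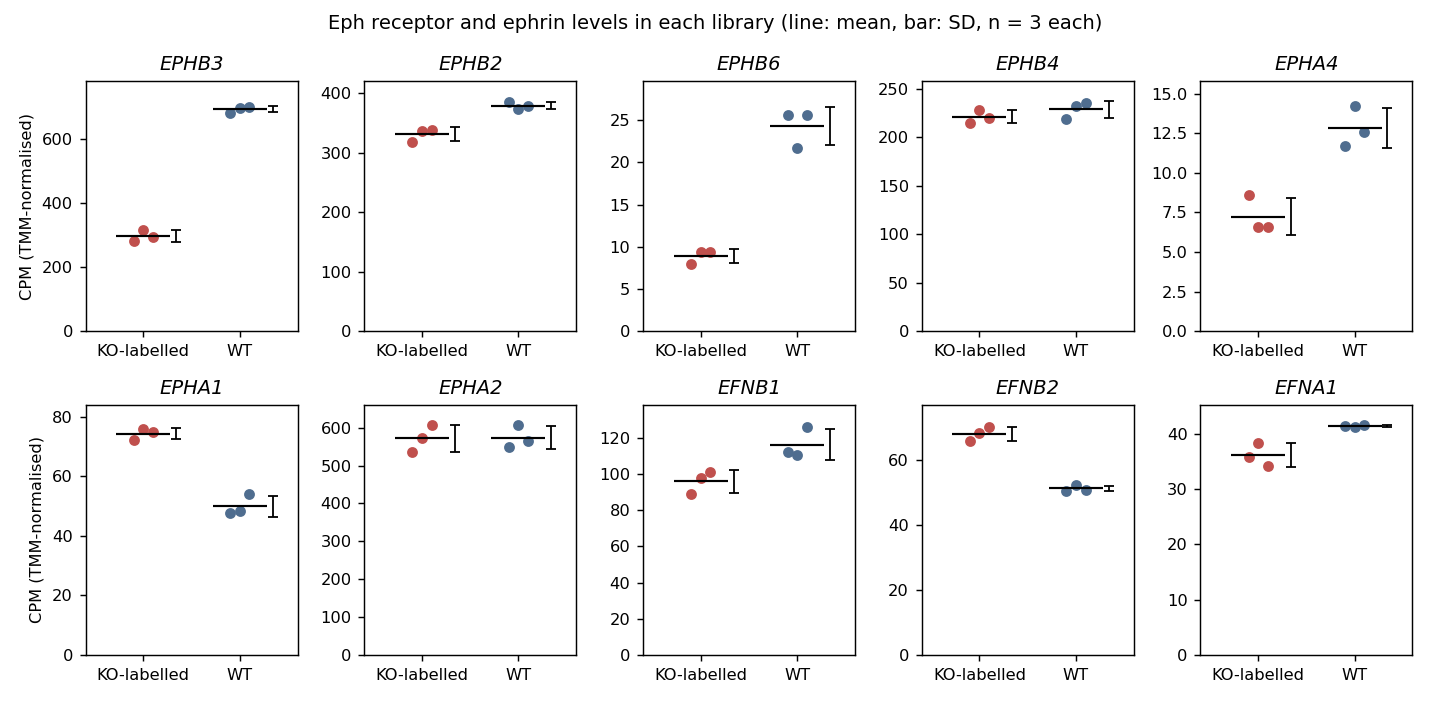
CPM (TMM-normalised, axes from 0) of each of the 10 members in the 3 knockout-labelled libraries (red) and the 3 wild-type libraries (blue), with the mean as a line and the SD as a bar. EPHB3 averaged 297 against 692 CPM and EPHB6 8.91 against 24.3 CPM with no overlap, whereas the points of EPHA2 and EPHB4 overlapped.

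The stretch of 250 bases before the RefSeq start is shown for the 3 called genes of the B class, the class whose summed level differed, and for the 2 members that rose; EPHA4 and EFNB1, which also fell, are not printed. Sequences are from RefSeq on GRCh38.p14, which has windows for all 10 members, and run 5′ to 3′ on the gene's strand. Capitals mark E-boxes, the letters CANNTG in which basic helix-loop-helix and zinc finger factors can bind. The EPHB3 stretch lies at chr3:184561535-184561784 on the plus strand, that of EPHB6 at chr7:142862506-142862755 on the plus strand, inside the deposited span of the gene, and that of EPHB2 at chr1:22710588-22710837 on the plus strand. The EPHA1 stretch lies at chr7:143408857-143409106 on the minus strand and the EFNB2 stretch at chr13:106535663-106535912 on the minus strand.
EPHB3: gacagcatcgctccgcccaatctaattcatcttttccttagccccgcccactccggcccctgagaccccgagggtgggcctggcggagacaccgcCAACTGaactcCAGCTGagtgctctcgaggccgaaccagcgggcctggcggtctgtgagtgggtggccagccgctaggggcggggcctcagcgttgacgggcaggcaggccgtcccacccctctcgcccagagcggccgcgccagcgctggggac
EPHB6: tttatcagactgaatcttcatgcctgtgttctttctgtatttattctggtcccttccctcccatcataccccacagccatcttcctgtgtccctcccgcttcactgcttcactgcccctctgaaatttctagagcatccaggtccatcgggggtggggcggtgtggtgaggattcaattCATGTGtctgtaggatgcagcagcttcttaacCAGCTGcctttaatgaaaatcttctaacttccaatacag
EPHB2: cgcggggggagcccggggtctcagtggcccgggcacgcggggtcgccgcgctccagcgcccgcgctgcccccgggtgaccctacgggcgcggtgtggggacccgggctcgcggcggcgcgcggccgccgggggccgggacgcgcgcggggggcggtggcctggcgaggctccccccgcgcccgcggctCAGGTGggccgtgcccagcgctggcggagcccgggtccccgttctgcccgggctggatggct
EPHA1: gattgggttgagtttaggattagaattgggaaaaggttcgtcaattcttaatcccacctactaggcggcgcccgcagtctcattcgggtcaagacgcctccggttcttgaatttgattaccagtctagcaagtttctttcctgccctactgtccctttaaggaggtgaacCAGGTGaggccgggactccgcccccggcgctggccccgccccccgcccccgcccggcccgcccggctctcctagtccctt
EFNB2: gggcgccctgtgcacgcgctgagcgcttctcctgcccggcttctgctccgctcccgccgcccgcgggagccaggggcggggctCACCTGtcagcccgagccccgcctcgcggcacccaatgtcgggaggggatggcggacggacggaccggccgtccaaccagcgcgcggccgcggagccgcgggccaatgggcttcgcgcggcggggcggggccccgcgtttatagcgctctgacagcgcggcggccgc
Read in the full windows of 300 bases, EPHB3 and EPHB6 held 2 E-boxes each and EPHB2, EPHA1 and EFNB2 held 1 each. The windows of EPHA4 and EFNB1, which fell and are not printed, held 0, as did that of EPHA2, which was not called. At least 1 was held by 7 of the 10 members and by 68.7% of all 35116 windows. The TCF/LEF core, searched on both strands as CTTTGAA or CTTTGAT or CTTTGTA or CTTTGTT, was in none of the 12 windows of the members and in 13.8% of all windows. The core GTGGGAA, bound by the Notch factor RBPJ, was found in 1 member, EFNA1, and in 6.25% of all windows. The EFNA1 window, which begins at base 155127626, lies downstream of the deposited start of that gene, base 155127460. The AP-1 core TGANTCA was in 0 members and 7.71% of all windows. The GC box GGGCGG was in every member window and in 45.0% of all windows. The EPHB6 window had 48.0% G and C and 3 CpG, the lowest of the 5 genes printed. The EPHB2 window printed had 83.0% and 49, EFNB2 78.67% and 49, EPHB3 69.0% and 26 and EPHA1 62.0% and 21. The median of all windows was 58.67% and 14. The EPHB6 window lies downstream of the deposited start of that gene, base 142855061. Its composition is therefore not that of the deposited start, and the comparison with the other 4 is limited by this. A match of letters shows neither binding nor its absence.

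Among the B-class receptors, EPHB3 (ENSG00000182580; GRCh38 chromosome 3, 184561784 to 184582409, plus strand) had 280.4, 315 and 294 CPM in the knockout-labelled libraries, against 681, 696 and 698 CPM in the wild-type ones. No knockout-labelled library came near the lowest wild-type one. The means were 297 ± 17.7 and 692 ± 9.57 CPM (SD, n = 3 each), a log2 fold change of -1.22 (SE 0.06, 95% interval -1.34 to -1.10, adjusted p = 4.67e-15). Of all tested genes, 47 had a smaller p and 4.89% a larger absolute log2 fold change. In bulk libraries fewer cells with a transcript and less of it per cell cannot be told apart.

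EPHB6 (ENSG00000106123; chromosome 7, 142855061 to 142871094, plus strand), a receptor whose kinase domain is inactive, had 7.95, 9.36 and 9.41 CPM in the knockout-labelled libraries and 25.6, 21.7 and 25.6 CPM in the wild-type ones. The groups were far apart, at 8.91 ± 0.830 and 24.3 ± 2.21 CPM, and its fall was the largest of the 10 members (log2 fold change -1.44, SE 0.11, 95% interval -1.67 to -1.21, adjusted p = 8.33e-11). It rested on 464 counts in all knockout-labelled libraries and 1241 in all wild-type libraries.

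EPHB2 (ENSG00000133216; chromosome 1, 22710839 to 22921500, plus strand), the other receptor of the crypt base, had 319, 337 and 339 CPM in the knockout-labelled libraries, against 386, 374 and 378 CPM in wild type. The groups did not overlap, but the gene fell by only 0.19 on the log2 scale (SE 0.05, 95% interval -0.31 to -0.08, adjusted p = 0.0101). The call was lost without knockout-labelled library 1 (adjusted p = 0.0613), without wild-type library 1 (0.0682) and with the replicate number as a block (0.0505).

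EPHB4 (ENSG00000196411; chromosome 7, 100802565 to 100827521, minus strand), the receptor that pairs with ephrin-B2 in blood vessels, had 215, 229 and 220.0 CPM in the knockout-labelled libraries and 219, 232 and 236 CPM in the wild-type ones. The groups overlapped, and the log2 fold change was -0.05 with a 95% interval of -0.16 to 0.06 (adjusted p = 0.573). EPHB4 shares 69 exon bases with SLC12A9 on the opposite strand, whose log2 fold change was -0.0025; where the strand setting of the counter is not known, reads of such stretches cannot be told apart.

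EPHB3 and EPHB2 thus did not move by the same amount. The ratio of EPHB3 to EPHB2, each as RPKM (CPM per kilobase of the deposited gene length), was 2.43, 2.58 and 2.40 in the knockout-labelled libraries, against 4.87, 5.14 and 5.09 in the wild-type ones. The 2 ranges lay apart (means 2.47 ± 0.0983 and 5.03 ± 0.146, two-sided exact permutation test, p = 0.1, the smallest that 3 against 3 libraries can give).

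The A-class receptors went in different directions. EPHA1 (ENSG00000146904; chromosome 7, 143390289 to 143408892, minus strand), the founding member of the family, had 72.2, 76.0 and 74.9 CPM in the knockout-labelled libraries and 47.6, 48.3 and 54.0 CPM in the wild-type ones. All 3 knockout-labelled libraries were above the highest wild-type one, with a log2 fold change of 0.57 (SE 0.07, 95% interval 0.43 to 0.72, adjusted p = 4.50e-07). EPHA1 shares 82 exon bases, 1.73% of its own, with ZYX on the opposite strand, which encodes the focal adhesion protein zyxin and itself rose, averaging 231 ± 4.06 against 175 ± 9.90 CPM (log2 fold change 0.40, SE 0.06, adjusted p = 3.92e-06). How many EPHA1 counts fall in those bases was not tested.

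EPHA4 (ENSG00000116106; chromosome 2, 221418027 to 221574202, minus strand), which binds ephrins of both classes, was the least abundant member. It had 8.60, 6.55 and 6.55 CPM in the knockout-labelled libraries and 11.7, 14.2 and 12.6 CPM in the wild-type ones, with no overlap (log2 fold change -0.83, SE 0.14, 95% interval -1.12 to -0.55, adjusted p = 3.52e-05). These levels come from 371 counts in all knockout-labelled libraries and 658 in all wild-type ones. An antisense gene, AC079834.2, covers 4.67% of its exon bases and had 15 against 20 counts in all.

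EPHA2 (ENSG00000142627; chromosome 1, 16124337 to 16156087, minus strand), a receptor widely found in epithelial cancers, had 535, 574 and 607 CPM in the knockout-labelled libraries and 549, 608 and 565 CPM in the wild-type ones. The 2 groups covered nearly the same range. The log2 fold change was -0.0034 with a 95% interval of -0.13 to 0.12 (adjusted p = 0.978), and its sign changed with the library left out.

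The transmembrane ephrins moved in opposite directions. EFNB1 (ENSG00000090776; chromosome X, 68828997 to 68842147, plus strand), the gene of ephrin-B1, had 88.8, 97.6 and 101 CPM in the knockout-labelled libraries, against 112, 110.4 and 126 CPM in wild type. It fell by 0.28 on the log2 scale (SE 0.07, 95% interval -0.41 to -0.14, adjusted p = 0.00258). EFNB2 (ENSG00000125266; chromosome 13, 106489731 to 106535662, minus strand), the gene of ephrin-B2, had 66.0, 68.3 and 70.4 CPM in the knockout-labelled libraries, against 50.7, 52.3 and 51.0 CPM in wild type. It rose, with a log2 fold change of 0.41 (SE 0.07, 95% interval 0.27 to 0.55, adjusted p = 4.30e-05). Neither gene's groups overlapped.

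On the RPKM scale the ratio of EFNB2 to EFNB1, added to the quantities first listed, was 0.491, 0.462 and 0.459 in the knockout-labelled libraries. It was 0.299, 0.313 and 0.267 in the wild-type ones (two-sided exact permutation test, p = 0.1, the smallest possible). As the genes moved in opposite directions, each without overlap, the ratio had to lie apart, so this test adds nothing to the results of the 2 genes. The antisense gene AL138689.2 covers 26.2% of the exon bases of EFNB2, but it had 46 counts in all knockout-labelled and 28 in all wild-type libraries, against 3537 and 2628 for EFNB2.

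EFNA1 (ENSG00000169242; chromosome 1, 155127460 to 155134857, plus strand), the gene of ephrin-A1, a main ligand of EphA2, had 35.8, 38.4 and 34.1 CPM in the knockout-labelled libraries and 41.5, 41.3 and 41.5 CPM in the wild-type ones. The groups did not overlap, yet the gene did not pass, with a log2 fold change of -0.20 (SE 0.08, 95% interval -0.36 to -0.04) and an adjusted p of 0.0647. It passed without knockout-labelled library 2 (-0.25, adjusted p = 0.0453).

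**Figure D2:**
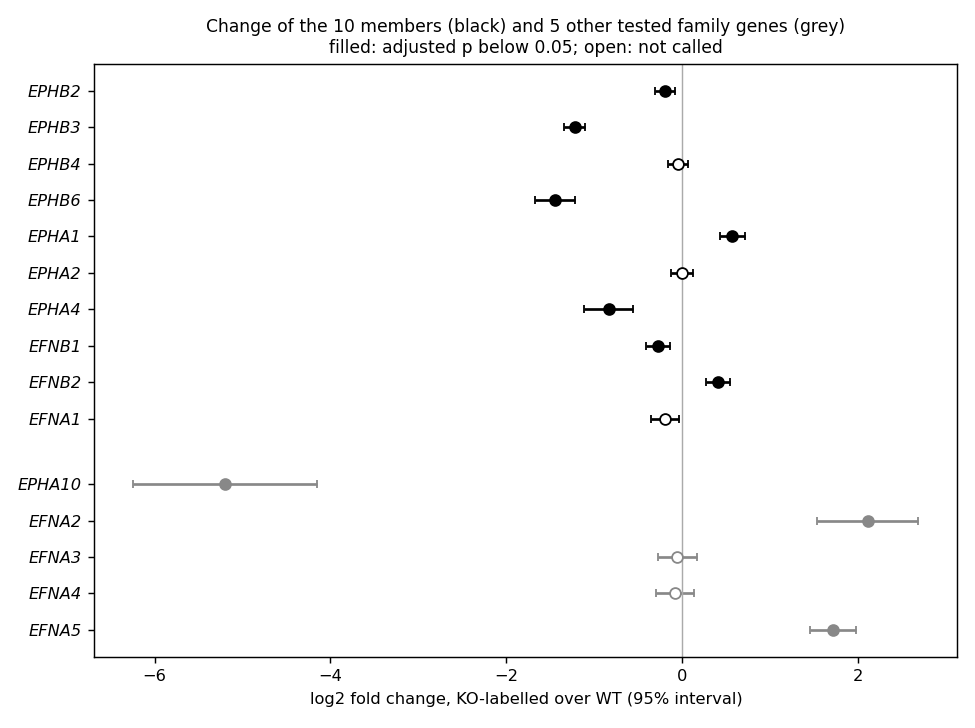
Log2 fold change, knockout-labelled over wild type, with its 95% interval for the 10 members (black) and the 5 other family genes with enough counts to test (grey); filled points have an adjusted p below 0.05. EPHB6 (-1.44) and EPHB3 (-1.22) lie lowest among the members, and EPHA10 (-5.19), EFNA2 (2.11) and EFNA5 (1.72) lie beyond all of them.

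The makeup of the receptor pool can be read per length. In the knockout-labelled libraries EPHA2 was highest, with a mean of 138 RPKM, followed by EPHB3 at 65.5 and EPHB4 at 34.4 RPKM. EFNB1 at 28.9 and EPHB2 at 26.5 RPKM overlapped in range, as did EFNA1 at 14.2 and EFNB2 at 13.6 RPKM, with EPHA1 just above at 15.7 RPKM; EPHB6 (1.67 RPKM) and EPHA4 (0.958 RPKM) were lowest. In the wild-type libraries EPHB3 came first at 153 RPKM, above the range of EPHA2 (mean 138 RPKM), then EPHB4 at 35.6 and EFNB1 at 35.1 RPKM, which overlapped, and EPHB2 at 30.3 RPKM. EFNA1 stood at 16.3 RPKM, EPHA1 at 10.6 and EFNB2 at 10.2 RPKM overlapped, and EPHB6 (4.56 RPKM) and EPHA4 (1.70 RPKM) were again lowest. The deposited length of EPHB2, 12516 bases, exceeds that of its longest coding transcript in GENCODE 29, 10816 bases. With the longest coding transcript as the length of each gene, the means of EPHB2 and EFNB1 exchanged places in the knockout-labelled libraries (30.7 and 28.9 RPKM). In wild type they were level (35.09 and 35.06 RPKM).

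The 7 receptor genes together reached 267, 289 and 291 RPKM in the knockout-labelled libraries and 363, 382 and 375 RPKM in the wild-type ones. The 4 B-class genes summed to 128 ± 5.79 RPKM against 223 ± 2.94 RPKM, and most of that difference was EPHB3, at 65.5 against 153 RPKM. The 3 A-class genes summed to 154 ± 8.82 RPKM against 150.2 ± 7.43 RPKM (SD, n = 3 each). The two-sided exact permutation test gave p = 0.1 for the B class, the smallest possible, and 0.6 for the A class. The sign of the A-class difference turned without knockout-labelled library 3. B-class receptors made up 45.4 ± 1.21% of the receptor pool in the knockout-labelled libraries and 59.8 ± 1.05% in wild type, and EPHB3 alone 23.2 ± 0.880% against 40.9 ± 0.583%. The share of EPHB6 was also smaller (0.592 against 1.22%), while those of EPHB2 (9.39 against 8.13%) and EPHB4 (12.2 against 9.54%) were larger. These are shares of a smaller total, as EPHB2 itself was lower (26.5 against 30.3 RPKM) and the level of EPHB4 overlapped between the groups. EPHA2, whose own level overlapped between the groups, made up 48.7 ± 1.32% against 36.9 ± 1.14%. The ephrin-B genes summed to 42.5 ± 2.36 RPKM against 45.3 ± 2.55 RPKM (exact permutation p = 0.3).

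**Figure D3:**
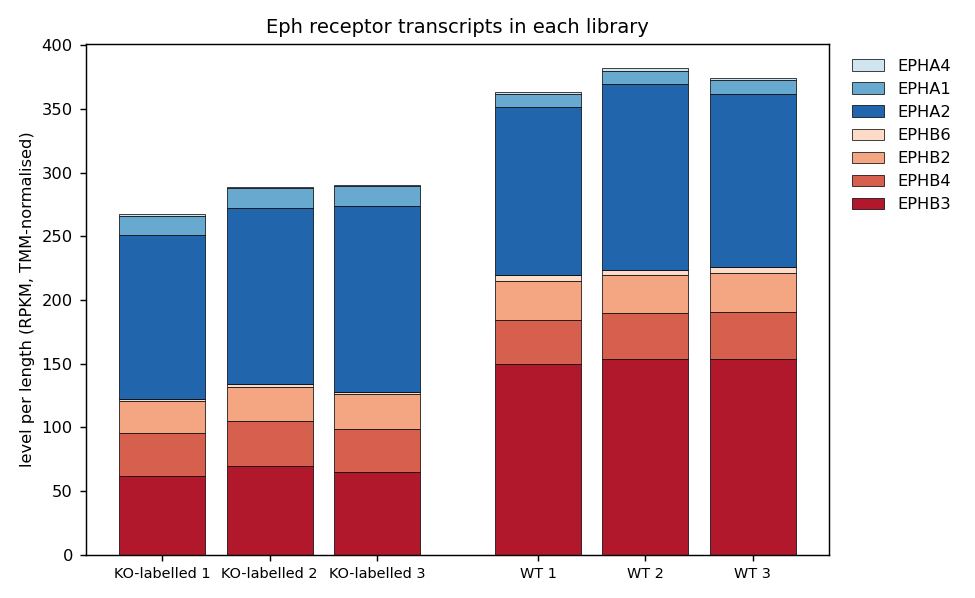
RPKM (TMM-normalised) of the 7 receptor members stacked for each library, B-class genes in red tones at the bottom and A-class genes in blue tones above. The total was 267 to 291 RPKM in the knockout-labelled libraries and 363 to 382 RPKM in the wild-type ones, with the EPHB3 block 61.9 to 69.6 against 150.2 to 154 RPKM.

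Of the 12 family genes that are not members, 5 had enough counts to test, and 2 of these were higher and 1 lower. EFNA5, a lipid-anchored ephrin best known from axon guidance, had 17.1, 18.7 and 16.3 CPM in the knockout-labelled libraries, against 5.03, 5.23 and 5.59 CPM in wild type (log2 fold change 1.72, SE 0.13, adjusted p = 2.60e-11). EFNA2, a further lipid-anchored ephrin, had 60, 133 and 89 counts against 23, 13 and 27 (log2 fold change 2.11, SE 0.28, adjusted p = 1.94e-06). EPHA10, a receptor with an inactive kinase domain, had 0, 3 and 1 counts in the knockout-labelled libraries and 49, 54 and 54 in the wild-type ones (log2 fold change -5.19, SE 0.51, adjusted p = 7.03e-09). In each of these the groups were well apart.

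EFNA3 and EFNA4, which lie beside EFNA1 on chromosome 1, had log2 fold changes of -0.05 (SE 0.11) and -0.07 (SE 0.10) and were not called. A further annotated gene, AL691442.1, runs across them on the same strand, covers 44.7% of the exon bases of EFNA3 and 15.0% of those of EFNA4 and had 0 counts, so their levels are uncertain. The remaining 7 genes were at or near 0. EPHA3 had 3, 4 and 10 counts in the knockout-labelled libraries and 0 in each wild-type library, and it passed where no filter on low counts was set (adjusted p = 0.00839). EPHB1 had 18 counts in all knockout-labelled against 13 in all wild-type libraries, and EPHA5 and EPHA7 0 in every library. Summed over EFNA1 to EFNA5, the ephrin-A level was 59.0 ± 6.20 RPKM against 56.4 ± 3.51 RPKM (exact permutation p = 0.7), a sum chosen after its members' values were seen, whose difference turned sign without knockout-labelled library 2.

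Genes on either side of the members were read for comparison, as the nearest tested protein-coding gene at each end. Of 20 such genes, 1 was higher, 7 were lower and 12 were not called, so that 40.0% were called, against 24.3% of all tested genes. Beside EPHB6, TRPV6, a calcium channel gene 0.109 kb away on the opposite strand, had 30 counts in all knockout-labelled and 69 in all wild-type libraries (log2 fold change -1.21, adjusted p = 0.0279, a call lost in 6 alternatives, among them DESeq2 and the removal of any 1 of 4 libraries, knockout-labelled 1, 2 or 3 or wild-type 2). PRSS2, on its other side, had 4 against 86 counts, with the reservation that it belongs to a family of near-identical genes. Beside EPHA1, FAM131B rose with a log2 fold change of 1.17 (SE 0.11, adjusted p = 4.16e-09).

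Around EPHB3 both neighbours were lower by less than EPHB3 itself. POLR2H, an RNA polymerase subunit gene, changed by -0.21 (SE 0.06, adjusted p = 0.0193) and MAGEF1 by -0.25 (SE 0.07, adjusted p = 0.00776). The POLR2H call was lost with the replicate block and without knockout-labelled library 1 or 3 or wild-type library 1 or 3. That of MAGEF1 was lost without knockout-labelled library 1 (adjusted p = 0.0593). TRIP6 fell beside EPHB4 (log2 fold change -1.24, SE 0.12, adjusted p = 9.24e-09), which was itself not called. Beside EFNB1, PJA1 fell (log2 fold change -0.39, SE 0.09, adjusted p = 0.00199). The neighbours of EPHB2, EPHA4, EFNB2 and EFNA1 were not called. Distances ran from 0.109 kb for TRPV6 to 3614 kb for ERCC5 beside EFNB2.

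**Figure D4:**
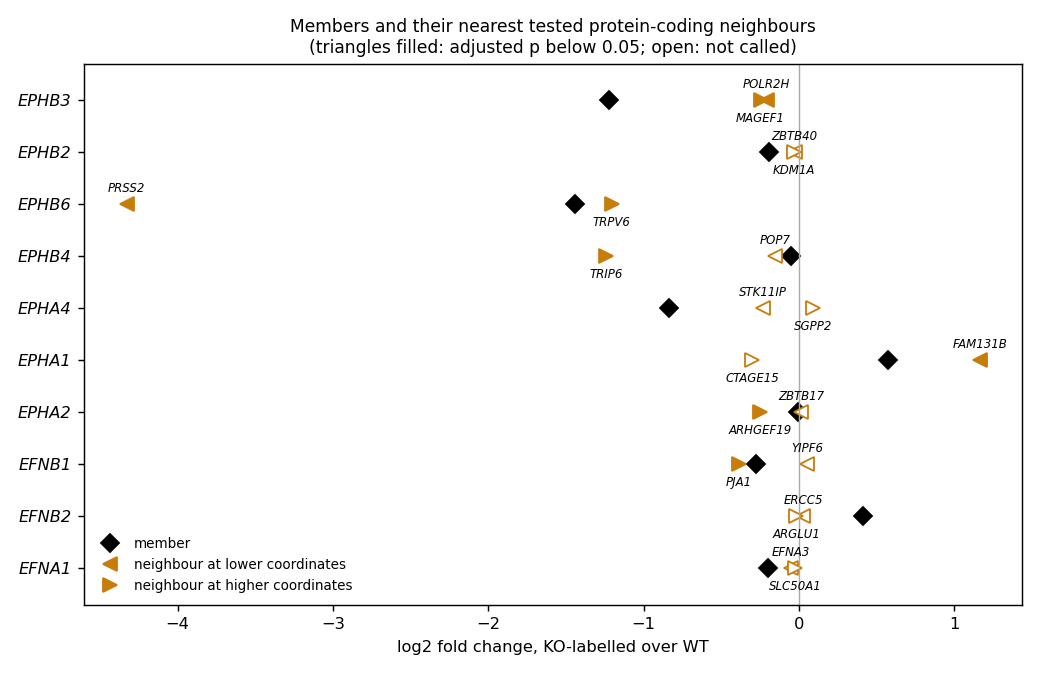
Log2 fold change, knockout-labelled over wild type, of each member (diamonds) and of the nearest tested protein-coding gene on each side (triangles; filled with an adjusted p below 0.05). TRPV6 and PRSS2 beside EPHB6 and FAM131B beside EPHA1 lie on the same side of 0 as the member. CTAGE15, the other neighbour of EPHA1, lies on the opposite side (-0.30, not called), and the neighbours of EFNB2 lie near 0.

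EPHB2 and EPHB3 belong to the genes that Wnt signalling turns on through TCF factors in the crypt, so 17 other genes of that kind were read beside them. Of the 16 tested, 8 were higher and 3 lower, 68.8% called against 24.3% of all tested genes, with a median log2 fold change of 0.21 against 0.0021 over all tested genes. LGR5, the receptor that marks crypt stem cells, fell to 21.8 ± 1.73 CPM in the knockout-labelled libraries, against 47.7 ± 2.37 CPM in wild type (log2 fold change -1.14, SE 0.08, adjusted p = 3.16e-11). The stem cell factor gene ASCL2 (log2 fold change -0.53, SE 0.07) and TCF7 (-0.37, SE 0.08), itself a TCF factor gene, fell too.

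Most called genes of the list went the other way. LEF1, a factor of the TCF family, averaged 19.1 ± 2.03 CPM in the knockout-labelled libraries and 2.29 ± 0.964 CPM in wild type (log2 fold change 3.03, SE 0.19, adjusted p = 1.40e-10). NOTUM, an enzyme that inactivates Wnt, averaged 25.9 ± 2.61 and 6.03 ± 1.54 CPM (adjusted p = 1.87e-11), and APCDD1, a membrane inhibitor of Wnt signalling, 125 ± 1.06 and 64.7 ± 1.85 CPM (adjusted p = 1.60e-12). AXIN2, a widely used readout of the pathway that was chosen after its value was seen, was not called (log2 fold change -0.05, SE 0.06, adjusted p = 0.538). The direction of EPHB3 and EPHB2 was thus that of 3 of the 11 called genes of this list.

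**Figure D5:**
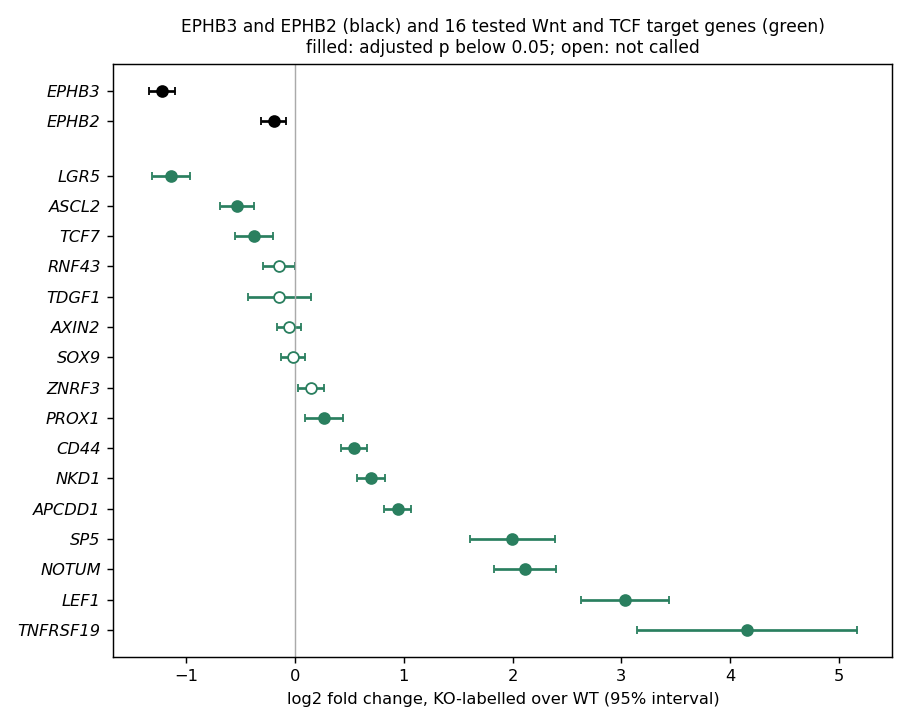
Log2 fold change, knockout-labelled over wild type, with its 95% interval for EPHB3 and EPHB2 (black) and for the 16 tested Wnt and TCF target genes (green); filled points have an adjusted p below 0.05. The green points run from -1.14 for LGR5 to 4.15 for TNFRSF19, which had 114 counts in all knockout-labelled and 6 in all wild-type libraries.

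Genes that carry the signal from Eph receptors into the cell were close to the background in their share of calls. In the list of kinases, adaptors, exchange factors and GTPases, 3 of 30 tested genes were higher and 3 lower, so that 6 of 30 were called, against 24.3% of all tested genes, and their median log2 fold change was 0.02. VAV2, an exchange factor that Eph receptors recruit, had 7, 3 and 2 counts in the knockout-labelled libraries against 151, 197 and 141 in wild type (log2 fold change -5.32, SE 0.30, adjusted p = 1.26e-13). Its relative VAV3 averaged 38.8 ± 1.86 CPM in the knockout-labelled libraries and 23.8 ± 0.478 CPM in wild type (log2 fold change 0.70, SE 0.08, adjusted p = 1.45e-07). The 2 relatives thus moved in opposite directions.

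FYN, a kinase of the Src family, fell to 4.47 ± 1.28 CPM in the knockout-labelled libraries, against 14.6 ± 1.66 CPM in wild type (log2 fold change -1.68, SE 0.16, adjusted p = 1.08e-08). PIK3R1, a regulatory subunit of PI3 kinase, and ROCK1, a kinase that acts on the actin cytoskeleton, rose by log2 fold changes of 0.55 (SE 0.07) and 0.31 (SE 0.08). ARHGEF19, an exchange factor of the ephexin group that also lies beside EPHA2, fell by 0.25 on the log2 scale (adjusted p = 0.0273). Its call was lost with the replicate block and without knockout-labelled library 1 or 3 or wild-type library 1 or 3. SRC and YES1 had log2 fold changes of 0.0062 and 0.0019 and were not called (chosen after their values were seen).

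Among partners of ephrin-B signalling and of the PDZ scaffolds it uses, 1 of 12 tested genes was higher and 2 were lower, 25.0% against 24.3% of all tested genes. PTPN13, a phosphatase with PDZ domains, averaged 49.2 ± 2.69 CPM in the knockout-labelled libraries and 38.4 ± 2.60 CPM in wild type (log2 fold change 0.36, SE 0.08, adjusted p = 0.00107). CDH1, the gene of E-cadherin, averaged 29.6 ± 0.812 and 38.1 ± 2.11 CPM (log2 fold change -0.36, SE 0.08, adjusted p = 0.00127). SDCBP, the scaffold syntenin, fell by 0.19 on the log2 scale (adjusted p = 0.0364), a call lost in 8 alternatives, including the removal of any library except wild-type 2.

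Genes of shedding, turnover and dephosphorylation of Eph receptors and ephrins had 1 of 17 tested genes higher and 0 lower, 5.88% against the 24.3% of all tested genes. The count of called genes was 4 without wild-type library 2 and 2 without knockout-labelled library 2. The gene that rose was PTPRO, a receptor-type phosphatase that acts on Eph receptors, with 17.7 ± 1.31 CPM in the knockout-labelled libraries and 8.28 ± 0.956 CPM in wild type (log2 fold change 1.09, SE 0.12, adjusted p = 5.55e-08). ADAM10, the protease that sheds ephrins, was not called (log2 fold change 0.05, SE 0.06; chosen after its value was seen).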

How the data were processed

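Poly(A) RNA of LS174T cells was sequenced in 6 libraries. Per the submitters' processing notes, HISAT2 2.0.5, an aligner, and featureCounts 1.5.0-p3, a read counter, were used; these notes list a mouse build, mm10, but the deposited identifiers are human and the coordinates of all 10 members equal those of GENCODE 29 on GRCh38. For the counter, a strand setting is not given in the sources used here. In 58967 rows the authors deposited raw counts per gene; the 232 rows with no gene name, 0.130 to 0.250% of a library's counts, entered neither library sizes nor tests. The authors' gene length in bases served for RPKM.

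The fit used edgeR 4.0.16 in R 4.3.3 (quasi-likelihood test, two-sided, TMM, filterByExpr with a minimum count of 10, robust, no covariate) over all genes with Benjamini-Hochberg adjustment; a call needed an adjusted p below 0.05. Class sums and ratios were compared by exact permutation over libraries. Alternatives used limma 3.58.1, DESeq2 1.42.0, other scalings and filters, protein-coding genes alone, a minimum change of 1.5-fold, a replicate block and each library left out. The steps were tested on simulated data. Python 3.11.15 made tables and plots.

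The members and lists were chosen with earlier results of these data known. Named genes were FXYD3, the members, up to 3 called genes of smallest p in each direction per list (or the most abundant where none was called) and the nearest tested and overlapping neighbours; AXIN2, TNFRSF19, ADAM10, SRC, YES1 and the family genes too low to test were named after their values were seen. EFNB2 over EFNB1, the receptor total and the shares of EPHB3 and EPHA2 were added to the sums first listed. Intervals are confidence intervals for the difference between the labels. They rest on the scatter among these libraries alone and do not give the range of library values.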

Additional observations from a re-analysis of the deposited data

How the results depend on the processing

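The 10 members were refitted under 16 alternatives. EPHB3, EPHB6, EPHA4, EFNB1, EPHA1 and EFNB2 kept their direction and their call in each; EPHB3 ranged from -1.27 to -1.18, EPHB6 from -1.52 to -1.37, EPHA4 from -0.97 to -0.76, EFNB1 from -0.32 to -0.22, EPHA1 from 0.54 to 0.63 and EFNB2 from 0.39 to 0.44. EPHB2 kept its direction (-0.21 to -0.17 with a library left out) and lost its call in 3, one of them the replicate block (-0.19, adjusted p = 0.0505). EPHA2 (-0.05 to 0.04) and EPHB4 (-0.08 to -0.02) were called in none. EFNA1 ran from -0.25 to -0.16. FXYD3 passed with upper-quartile scaling (0.56), no filter (0.52), protein-coding genes alone (0.55) and the replicate block (0.54), and ranged from 0.38 to 0.79 with a library left out. Deviations of same-numbered libraries correlated at 0.02, -0.08 and -0.10, and those of differently numbered ones at -0.04 to 0.11. With 3 libraries per group these values cannot show whether same-numbered libraries share a batch, which the labels do not state. The block changed no other member's call.

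Against a minimum change of 1.5-fold, 0 members were called higher and 2 lower, with 377 genes higher and 418 lower over all genes, 6 Wnt and TCF targets, 2 forward signalling genes and 0 reverse signalling genes; the test itself is stricter. With a library left out, all genes gave 1329 to 2189 higher and 1376 to 2401 lower calls, the members 2 higher and 4 to 6 lower, the Wnt and TCF targets 10 to 12, forward signalling 5 to 9, reverse signalling 2 to 4 and other family genes 3 (4 with no filter). The shedding list had 2 called with upper-quartile or total-count scaling, with the filter at 1 CPM and with protein-coding genes alone, and 1 to 4 with a library left out (4 without wild-type library 2); the cause was not tested. The differences in sums turned sign for the A-class receptors (-0.14 RPKM without knockout-labelled library 3, up to 8.66 with another left out) and for the 5 ephrin-A genes (-0.85 RPKM without knockout-labelled library 2, up to 5.19), the cause of which was not tested. Other sums and ratios kept their sign under every setting tried, among them the length of the longest coding transcript, an alternative chosen after seeing the data. For ratios and shares this was fixed under other scalings, which cannot change a ratio within a library. Where the groups do not overlap, leaving a library out cannot turn the sign either. EPHA4 and EPHB6 rest on the fewest counts of the members, and 7 family genes were too low to test; without the filter EPHA3 was called among these (adjusted p = 0.00839).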

Other observations

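Among the 4709 protein-coding genes averaging 50 CPM or more, those whose log2 CPM followed EPHB3 most closely over the 6 libraries were the amino acid transporter gene SLC7A5, the kinase gene TNK2, PCK1, which encodes an enzyme of gluconeogenesis, the factor gene MYRF and the folate transporter gene SLC19A1. Their Pearson r with EPHB3 was 0.998 to 0.999, and their log2 fold changes were -0.59, -0.81, -2.26, -0.68 and -0.87. The 6 libraries form 2 groups, which this likeness shares.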
